A study of Mus musculus with 7 samples.

Results

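The 10 genes described here encode enzymes that methylate lysine 9 of histone H3 (H3K9), proteins that read this mark and a corepressor that works with both. They are described in mouse embryos cloned by nuclear transfer from a somatic cell (SCNT). They were taken by gene symbol from a table of 24319 genes: the methyltransferases Suv39h1, Suv39h2, Setdb1, Setdb2, Ehmt1 and Ehmt2, the heterochromatin protein 1 (HP1) genes Cbx1, Cbx3 and Cbx5, and the corepressor gene Trim28. All 10 are in the table, had an FPKM (fragments per transcript length and library size) of at least 1 in every library, and were among the 12275 genes tested.

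H3K9 methylation marks silent chromatin. SUV39H1 and SUV39H2 place the trimethyl mark at heterochromatin around centromeres, SETDB1 places it at retrotransposons and other sites where TRIM28 and its zinc finger partners recruit it, and EHMT1 and EHMT2 (GLP and G9a) work as a pair on mono- and dimethylation in euchromatin. HP1 proteins bind the methylated histone through their chromodomain. In SCNT embryos, H3K9 trimethylation carried over from the donor nucleus is known as a barrier to reprogramming, and injection of mRNA of KDM4A, a demethylase of this mark, is a known way to lower it.

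The donor nuclei came from cumulus cells, the somatic cells around an ovulated oocyte, and the labels give the strain B6D2F1, a wild type genotype and the 2-cell stage. All groups, the fresh-oocyte group included, carry injected Kdm4a mRNA. The recipient oocytes were fresh in FOC+K (2 libraries), vitrified and warmed in CROC+K (3 libraries), and vitrified and warmed, with 10 µM melatonin, a pineal hormone and antioxidant, given to the embryos, in CROC+K+M (2 libraries). Each library is a pool of 50 to 100 embryos, so the values are averages over cells and embryos. The table holds no counts, so the depth behind a value is unknown. The labels name 2 to 3 biological replicates, but nothing says that the pools came from separate oocyte collections, so p-values measure the spread between these libraries.

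Libraries also differed within groups, and some of these differences ran in part along the groups. Transcripts typical of oocytes (13 or 14 of 15 listed genes at an FPKM of at least 1) and of the 2-cell stage (10 to 12 of 15) were present in each library, as the label states. In CROC+K+M replicate 1, though, 10 of 10 trophectoderm markers had an FPKM of at least 1 and summed to 26179, against 4 to 6 of 10 and a sum of 38.7 to 119.1 in the other 6 libraries, where Cdx2 is listed at 0. Most of the 26179 was Fabp3, at 24404, and the next highest trophectoderm marker in that library was Krt18, at 750.3. Cumulus cell markers summed to between 20.9 and 39.2. Rn45s, the ribosomal RNA precursor, was above 1000 in 3 libraries (both of FOC+K and replicate 1 of CROC+K) and between 175.4 and 265.7 in 4 others. The FPKM of all genes summed to 552356 to 585039 in the former and 726297 to 1017995 in the latter. In such bulk samples fewer cells of a type and less RNA per cell cannot be told apart.

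Cbx1, which encodes HP1β, was the highest of the 10 genes, with a mean FPKM of 71.8 ± 16.2 (SD, n = 7 libraries). Trim28 followed at 34.1 ± 13.7, and Suv39h2 (21.3 ± 3.05), Cbx3 (19.7 ± 5.89), Setdb2 (19.1 ± 6.68) and Cbx5 (16.8 ± 4.16) formed a middle range. Suv39h1 (11.6 ± 1.70), Setdb1 (8.12 ± 3.80), Ehmt1 (7.40 ± 1.07) and Ehmt2 (6.72 ± 1.46) were lowest. Cbx1 exceeded Trim28 in 7 of 7 libraries and Suv39h1 exceeded Setdb1 in 6 of 7, while every other pair of neighbours in this order had a mean gap smaller than the SD of that gap. Of the tested genes, 49.3% had a lower mean FPKM than Ehmt2 and 88.5% a lower one than Cbx1.

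**Figure D1:**
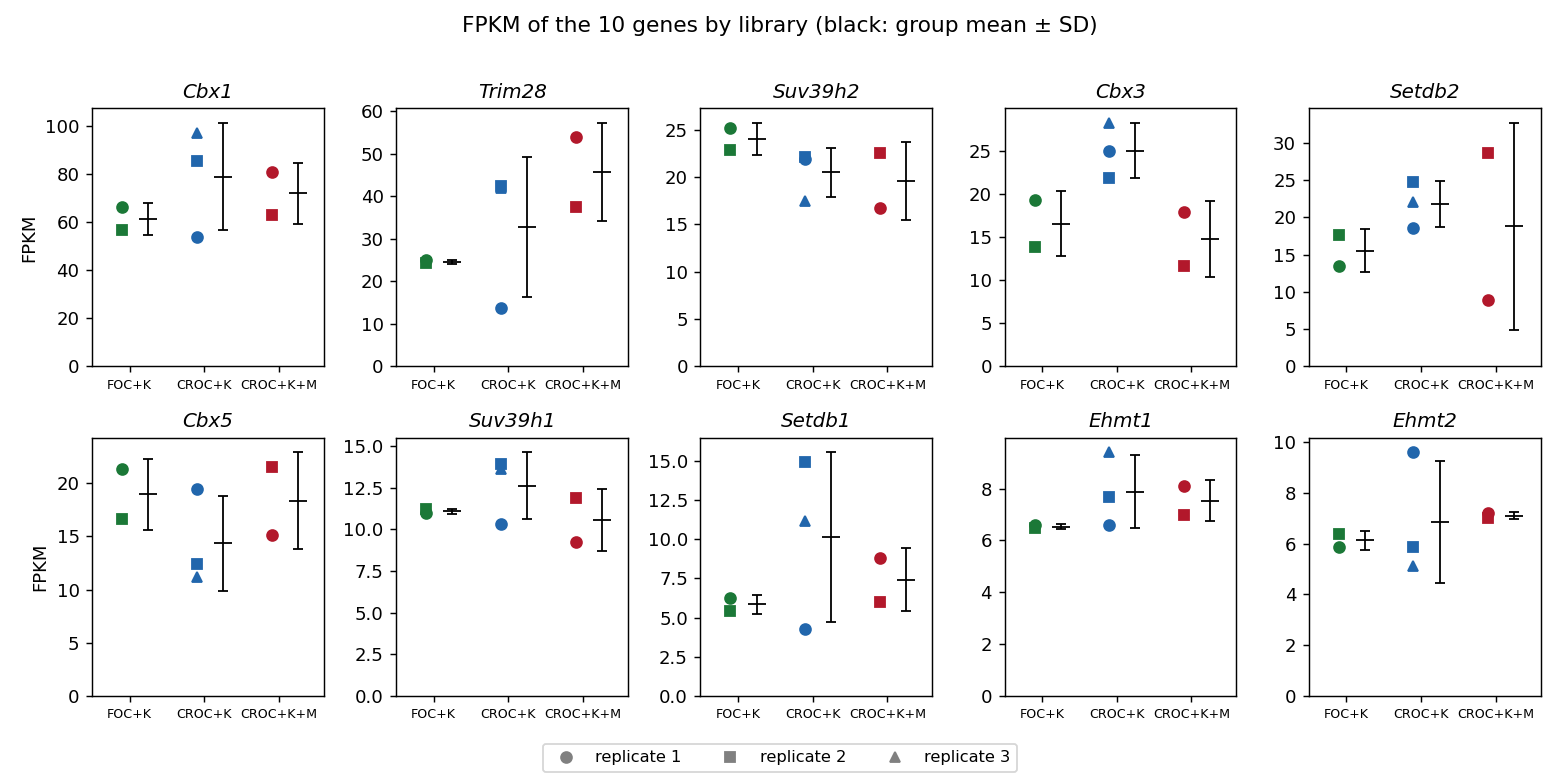
FPKM of each of the 10 genes (y axis, from 0) in the 7 libraries by group (x axis), with symbols for the replicate number and black bars for the group mean ± SD. Cbx3 is higher in all 3 CROC+K libraries than in the other 4, while Setdb1 and Trim28 spread most within CROC+K, where replicate 1 is lowest.

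The SUV39 pair varied little between libraries. Suv39h2, the paralog that has higher levels in germ cells, stood at an FPKM of 25.2 and 22.9 (FOC+K), 21.9, 22.1 and 17.5 (CROC+K) and 16.7 and 22.5 (CROC+K+M). Suv39h1 stood at 10.9 and 11.2, at 10.3, 13.9 and 13.6, and at 9.23 and 11.9 in the same order. The highest library exceeded the lowest 1.51-fold for each, and the log2 ratio of Suv39h2 to Suv39h1 was above 0 in each library, from 0.37 in CROC+K replicate 3 to 1.21 in FOC+K replicate 1. On the log2(FPKM + 1) scale the SD over the 7 libraries was below that of Suv39h1 in 3.40% of the tested genes and below that of Suv39h2 in 4.38%, a scale that lowers the SD of genes with low values.

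Ehmt1 stood at an FPKM of 6.60 and 6.47 (FOC+K), 6.58, 7.70 and 9.40 (CROC+K) and 8.09 and 6.98 (CROC+K+M). Its partner Ehmt2 stood at 5.85 and 6.39, at 9.59, 5.86 and 5.12, and at 7.21 and 7.00. The 2 genes had near equal levels in FOC+K and CROC+K+M, with log2 ratios of Ehmt1 to Ehmt2 between -0.0044 and 0.17 in these 4 libraries. CROC+K spread from -0.54 in replicate 1 to 0.88 in replicate 3. The group means of this ratio, 0.10 ± 0.11 (SD, n = 2), 0.24 ± 0.72 (SD, n = 3) and 0.08 ± 0.12 (SD, n = 2) for FOC+K, CROC+K and CROC+K+M, differed by less than the spread within CROC+K.

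Setdb1, the methyltransferase that works with TRIM28, had a 3.52-fold range. Its FPKM was 6.28 and 5.39 (FOC+K), 4.24, 14.9 and 11.2 (CROC+K) and 8.83 and 5.99 (CROC+K+M), so CROC+K held both the lowest and the highest value. Setdb2, a relative less well described, stood at 13.5 and 17.6, at 18.5, 24.7 and 22.1, and at 8.95 and 28.6. The lowest and the highest Setdb2 values were both in CROC+K+M, the lowest in the library with trophectoderm markers. Setdb2 was above Setdb1 in all 7 libraries, but in that library the log2 ratio of Setdb1 to Setdb2 was -0.02, against -2.25 to -0.73 elsewhere.

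Among the HP1 genes, Cbx1 stood at an FPKM of 66.0 and 56.6 (FOC+K), 53.9, 85.4 and 97.0 (CROC+K) and 80.8 and 62.9 (CROC+K+M). Cbx3, the gene of HP1γ, which is also found along active genes, stood at 19.3 and 13.9, at 24.9, 21.9 and 28.2, and at 17.9 and 11.6. The lowest CROC+K library of Cbx3 exceeded every library of the other groups. Cbx5, the gene of HP1α, stood at 21.3 and 16.6, at 19.4, 12.4 and 11.2, and at 15.1 and 21.6, with the lowest values in CROC+K replicates 2 and 3. Cbx3 has 8 processed copies named after it in the annotation used here (GENCODE M21), and reads from the gene and its copies may have been split, so its level is uncertain.

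The share of each gene in the HP1 total is the same under any scaling by 1 factor per library, though the uncertain level of Cbx3 enters each share. Cbx1 made up 54.9% to 71.3% of the summed FPKM of the 3 HP1 genes, Cbx3 12.1% to 25.4% and Cbx5 8.18% to 22.4%. Cbx5 made up 10.4%, 8.18% and 13.3% in CROC+K replicates 2 and 3 and CROC+K+M replicate 1, and 19.1% to 22.4% in the other 4 libraries. By group, the Cbx5 share was 19.5 ± 0.67% for FOC+K (SD, n = 2), 12.8 ± 6.16% for CROC+K (SD, n = 3) and 17.9 ± 6.47% for CROC+K+M (SD, n = 2), so the group means differed by less or little more than the spread within CROC+K.

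**Figure D2:**
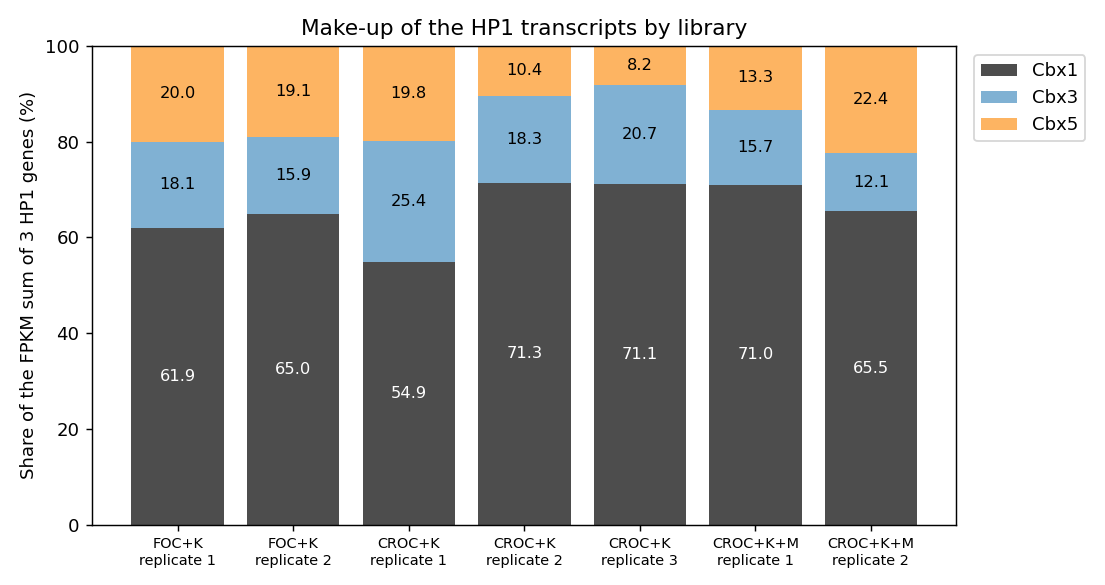
Share of Cbx1, Cbx3 and Cbx5 in the summed FPKM of the 3 HP1 genes (y axis, percent) in each of the 7 libraries (x axis); the numbers are the shares. Cbx1 is the largest part in each library, and the Cbx5 part is smallest in CROC+K replicates 2 and 3 and CROC+K+M replicate 1.

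Trim28, a corepressor that joins zinc finger proteins to SETDB1 and HP1, stood at an FPKM of 24.9 and 24.3 (FOC+K), 13.8, 42.4 and 42.0 (CROC+K) and 53.9 and 37.6 (CROC+K+M). Its libraries with low Rn45s (37.6 to 53.9) did not overlap with those with high Rn45s (13.8 to 24.9). The same held for Ehmt1, so 2 of the 10 members were higher without overlap in the libraries with low Rn45s (6.66% of all tested genes) and 0 were lower (5.21%). Whether the level of Rn45s bears on this was not tested.

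CROC+K set against FOC+K addresses the effect of vitrifying the oocyte. None of the 10 genes passed the threshold of an adjusted p of 0.05 in limma, nor did any of the 12275 tested genes (0%), where 1.14% of genes were higher and 1.05% lower at an unadjusted p under 0.05; no member was. Cbx3 had the smallest unadjusted p of the members, and its mean FPKM was 25.0 ± 3.18 in CROC+K (SD, n = 3) against 16.6 ± 3.80 in FOC+K (SD, n = 2). Its log2 fold change was 0.58 ± 0.32 (SE; limma, unadjusted p = 0.107, adjusted p = 0.9996), with a 95% confidence interval from -0.16 to 1.31. Setdb1 had a log2 fold change of 0.56 ± 0.50 (-0.60 to 1.72), Setdb2 one of 0.46 ± 0.46 (-0.62 to 1.55) and Cbx5 one of -0.41 ± 0.35 (-1.21 to 0.40). The groups did not overlap for Cbx3 and Setdb2, which were higher in CROC+K (2 of 10 members, against 9.66% of all tested genes), and for Suv39h2, which was lower (1 of 10, against 9.47%).

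Of the 10 genes 8 had a higher mean log2 value in CROC+K, with a median log2 fold change of 0.23, against 47.3% of all tested genes and a median of -0.03. With libraries scaled to equal FPKM sums only 3 of 10 had a higher mean, the median of the members was -0.09 and that of all genes -0.30. CROC+K replicate 1 decided several of these values. Without it the log2 fold change was 1.03 ± 0.33 (SE) for Setdb1, 0.76 ± 0.27 for Trim28 (0.24 with it) and 0.57 ± 0.25 for Cbx1 (0.32 with it), with adjusted p = 0.365, 0.385 and 0.441 in limma. Within the 3 libraries with high Rn45s, where this library alone stands for CROC+K, the values were -0.38 for Setdb1, -0.79 for Trim28, -0.18 for Cbx1 and 0.58 for Cbx3.

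CROC+K+M set against CROC+K addresses the effect of melatonin after vitrification. Again no member and none of the 12275 genes (0%) passed the threshold in limma, where 6.69% of genes were higher and 3.75% lower at an unadjusted p under 0.05. Cbx3 was the 1 member among the latter, with means of 14.8 ± 4.43 (SD, n = 2) and 25.0 ± 3.18 (SD, n = 3) FPKM and a log2 fold change of -0.75 ± 0.32 (SE; limma, unadjusted p = 0.0472, adjusted p = 0.470). It was also the 1 member of 10 whose groups did not overlap, all CROC+K+M libraries being lower, as in 11.2% of all tested genes, and 0 of 10 members were higher without overlap, against 12.3%. Its log2 fold change was -1.04 ± 0.35 without the library with trophectoderm markers and -0.75 ± 0.37 within the 4 libraries with low Rn45s (adjusted p = 0.559 and 0.515 in limma, in a range of 0.342 to 0.810 over 17 alternatives). Trim28 had a log2 fold change of 0.61 ± 0.50, or 0.09 ± 0.31 within those 4 libraries, and Setdb2 had one of -0.40 ± 0.46.

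Of the members, Setdb2 differed most between the 2 CROC+K+M libraries, 3.19-fold, against 1.54-fold for Cbx3, the next. The log2 fold change of Setdb2 against CROC+K was -0.40 with both libraries, 0.39 without CROC+K+M replicate 1 and -1.18 without CROC+K+M replicate 2. In a group of 2, leaving out either library moves the mean equally far, so these values do not show which of them sets it. In the latter fit, which rests on the library with trophectoderm markers alone, 658 genes passed the threshold, and the adjusted p of Setdb2 was 0.124 in limma. The members had a median log2 fold change of -0.08 (3 of 10 higher) beside a median of 0.06 over all tested genes (54.1% higher).

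CROC+K+M against FOC+K sets vitrification and melatonin together against fresh oocytes, and shares libraries with both comparisons above. Of the 10 genes 6 had a higher mean log2 value in CROC+K+M, against 52.9% of all tested genes. No member and no gene (0%) passed the threshold in limma, where 4.46% of genes were higher and 2% lower at an unadjusted p under 0.05; no member was. Trim28 had the largest difference of the members, with a mean FPKM of 45.8 ± 11.5 (SD, n = 2) against 24.6 ± 0.49 (SD, n = 2) and a log2 fold change of 0.85 ± 0.54 (SE; 95% confidence interval -0.42 to 2.11; limma, adjusted p = 0.805). Without the library with trophectoderm markers it was 0.59 ± 0.67. The groups did not overlap for Trim28, Ehmt1 and Ehmt2, which were higher in CROC+K+M (3 of 10 members, against 21.3% of all tested genes), and for Suv39h2, which was lower (1 of 10, against 19.7%). With equal FPKM sums the log2 fold changes of Ehmt1 and Ehmt2 turned to -0.35 and -0.33, while that of Trim28 was 0.27 and that of Suv39h2 -0.86. No side of the Rn45s split holds libraries of both groups, and with that split as a term the value of Trim28 was -0.70.

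**Figure D3:**
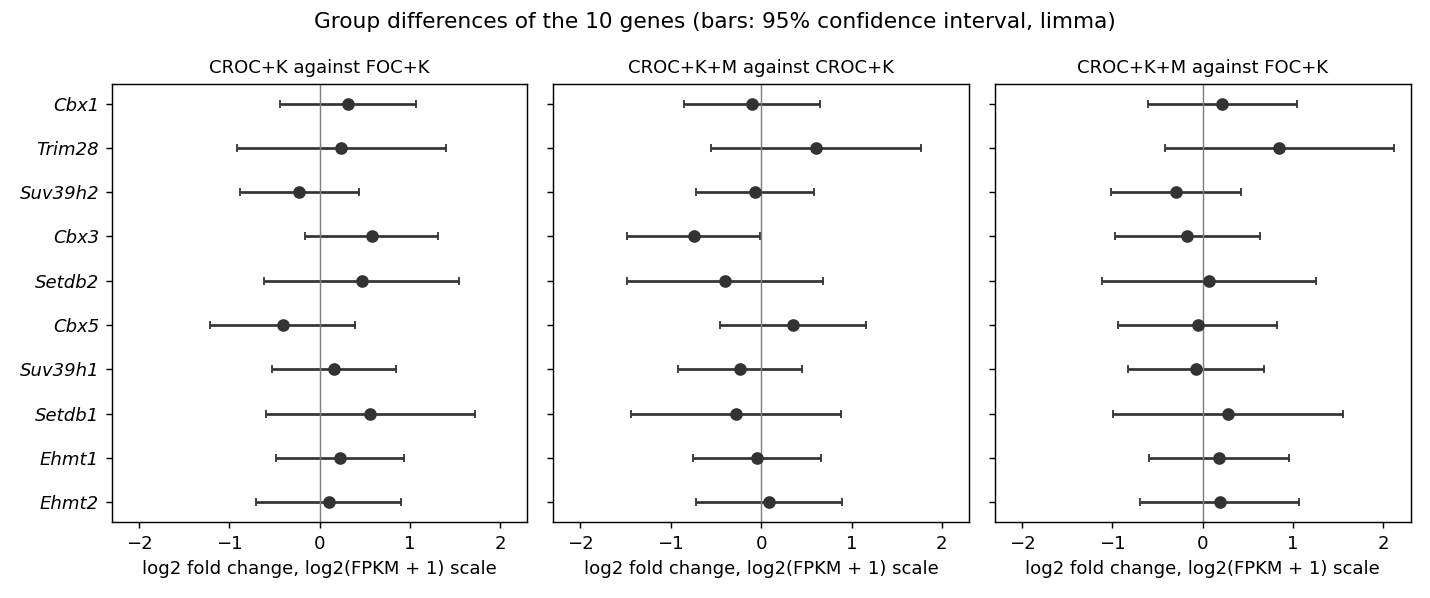
Log2 fold change on the log2(FPKM + 1) scale (x axis) of each of the 10 genes (y axis) in the 3 comparisons, with bars for the 95% confidence interval from limma. Cbx3 in CROC+K+M against CROC+K is the single value whose interval does not reach 0, and its adjusted p was 0.470.

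The level of Kdm4a varied far more between libraries than that of any member, which gives a further axis to read them against. Kdm4a FPKM was 2014 and 816 (FOC+K), 497, 4051 and 4949 (CROC+K) and 2797 and 689 (CROC+K+M), and injected and endogenous transcripts are not told apart in it. It was 6.99 to 62.7 times the summed FPKM of the 6 methyltransferases, which itself lay between 59.0 and 89.2. Each gene's log2(FPKM + 1) was fitted on that of Kdm4a in limma over the 7 libraries, for 12274 genes, so a slope is the log2 change of a gene per log2 unit of Kdm4a.

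Setdb1, Trim28 and Cbx1 had the steepest rising slopes of the members. Setdb1 had an FPKM of 4.24 in the library with the least Kdm4a and 14.9 and 11.2 in those with the most, in nearly the same order as Kdm4a (Spearman rho = 0.93, Pearson r = 0.91, n = 7; exact permutation p = 0.00675 and 0.00615, adjusted over all 12274 genes 0.216 and 0.200). Its slope was 0.39 ± 0.10 (SE; limma, unadjusted p = 0.00488, adjusted p = 0.129). Cbx1 had a slope of 0.23 ± 0.08 (limma, unadjusted p = 0.0168, adjusted p = 0.209) and followed the order of Kdm4a more closely still (rho = 0.96, r = 0.95; exact permutation p = 0.00278 and 0.00298, adjusted 0.184 and 0.185). Trim28 had a slope of 0.35 ± 0.14 (limma, unadjusted p = 0.0308, adjusted p = 0.269), with rho = 0.75 and r = 0.72 (exact permutation p = 0.0663 and 0.0700, adjusted 0.394 and 0.395). None passed once adjusted, and no gene passed in the exact permutation test, whose smallest adjusted p over all genes was 0.162.

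Cbx5 ran the other way, with a slope of -0.21 ± 0.10 (limma, unadjusted p = 0.0607, adjusted p = 0.348), rho = -0.82 and r = -0.78 (exact permutation p = 0.0341 and 0.0534, adjusted 0.320 and 0.358). The GLP and G9a pair split, with Ehmt1 at r = 0.80 (exact permutation p = 0.0325, adjusted 0.306) and Ehmt2 at r = -0.75 (exact permutation p = 0.0377, adjusted 0.320), on slopes of 0.11 ± 0.09 and -0.15 ± 0.10. Cbx3 (slope 0.16 ± 0.12), Suv39h1 (0.07 ± 0.09), Setdb2 (-0.06 ± 0.16) and Suv39h2 (-0.08 ± 0.09) had permutation p-values from 0.256 to 0.747 for r by the exact test. In all, 6 of the 10 slopes were above 0, against 50.6% of all tested genes. By the exact permutation test of r, 3 members had an unadjusted p under 0.05 with a rising slope (6.16% of all genes) and 1 with a falling one (8.04%), and 0% of genes passed once adjusted. By limma, 3 of the 10 members had a rising slope at an unadjusted p under 0.05 in limma, against 6.49% of all tested genes, and 0 had a falling one, against 9.01%. At an adjusted p of 0.05, 84 genes (0.684%) passed and no member did. That count was 783 without CROC+K+M replicate 1, 58 without CROC+K+M replicate 2, 40 and 14 without FOC+K replicate 1 or 2, and 10, 5 and 6 without CROC+K replicate 1, 2 or 3.

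The slopes of Setdb1, Cbx1, Trim28 and Cbx5 kept their sign under all 16 alternatives. So did those of Cbx3, Ehmt2 and Suv39h2, the last at only -0.08 ± 0.09 (SE), so a kept sign does not set the former genes apart. Alternatives that only change the gene filter leave a slope as it was, so these are not 16 separate checks. For Setdb1, Cbx1, Trim28 and Cbx5 the ranges were 0.31 to 0.46, 0.11 to 0.29, 0.16 to 0.47 and -0.36 to -0.16. With the group as a further term, which compares libraries within groups, the slopes were 0.37 ± 0.11, 0.22 ± 0.07, 0.40 ± 0.10 and -0.18 ± 0.10 (SE). With the Rn45s split as a term they were 0.31 ± 0.12, 0.18 ± 0.09, 0.16 ± 0.12 and -0.19 ± 0.12. Without CROC+K replicate 1 and CROC+K+M replicate 2, the 2 libraries farthest from the median of Kdm4a on the log2 scale, r was 0.88 for Setdb1, 0.97 for Cbx1, 0.74 for Trim28 and -0.67 for Cbx5. It was 0.84 for Ehmt1, -0.45 for Ehmt2 and 0.92 for Cbx3, for which the 7 libraries gave 0.49. Without the library with trophectoderm markers, r was 0.91 for Setdb1, 0.95 for Cbx1, 0.71 for Trim28 and -0.78 for Cbx5 (n = 6; exact permutation p = 0.00972, 0.00417, 0.10 and 0.0903). It was 0.78 for Ehmt1 and -0.85 for Ehmt2 (exact permutation p = 0.0389 and 0.00833), and 0.83 for Suv39h1 (exact permutation p = 0.0528), for which the 7 libraries gave 0.44. These p-values are not adjusted.

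**Figure D4:**
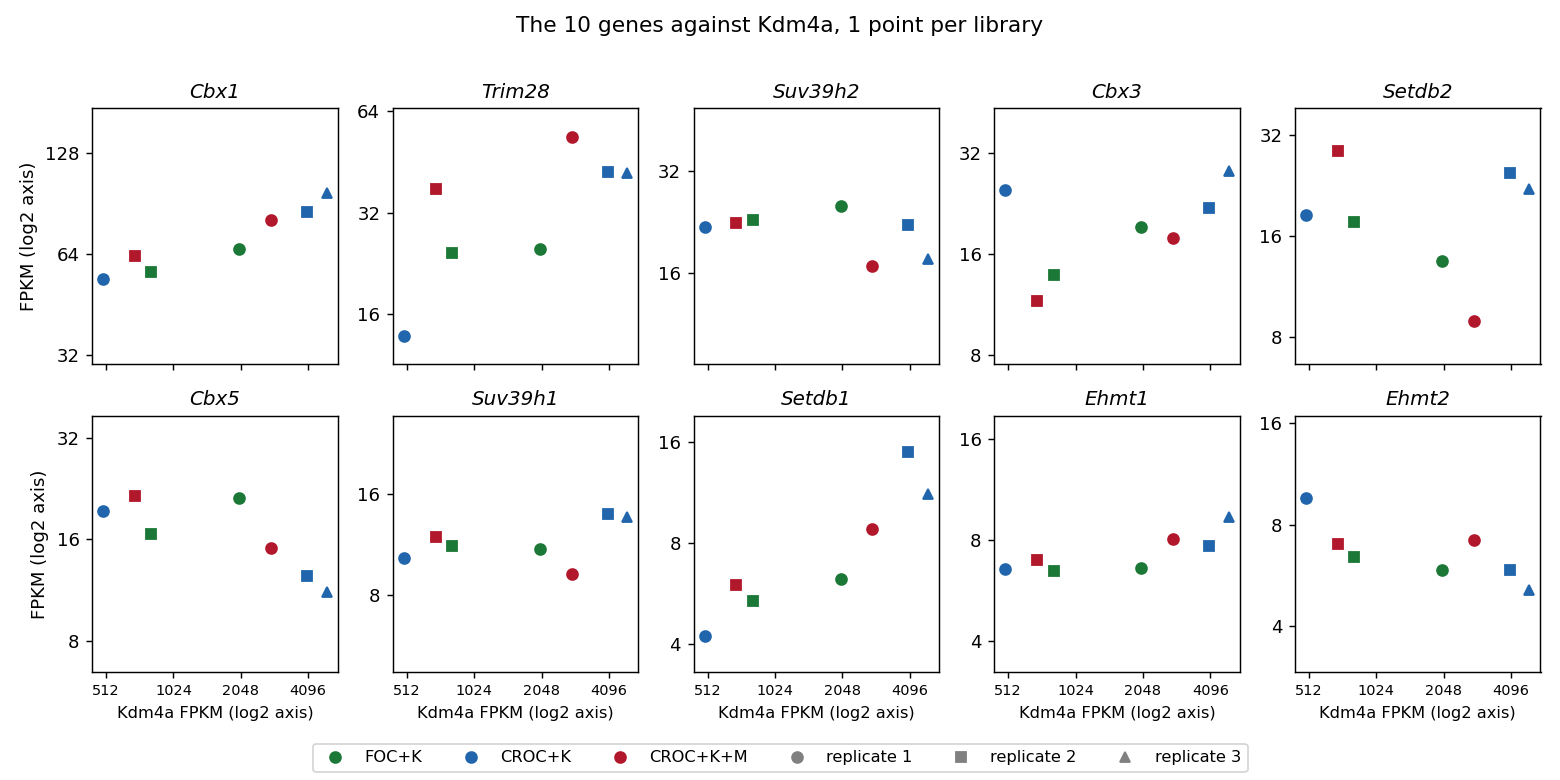
FPKM of each of the 10 genes (y axis, log2, the same fold span in each panel) against Kdm4a FPKM (x axis, log2), 1 point per library, coloured by group. Setdb1 and Cbx1 climb from left to right, and Cbx5 and Ehmt2 have their lowest point at the far right.

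Other features of the libraries varied along with Kdm4a to different degrees. The 15 transient 2-cell stage markers summed to an FPKM of 195.9 to 234.5 in the 3 libraries with the least Kdm4a, 520.9 and 499.9 in the next 2, and 855.9 and 1228 in CROC+K replicates 2 and 3. Of the 12 that could be tested, 12 had a rising slope, against 50.6% of all tested genes, with a median of 0.59, and 5 passed the threshold in limma, against 0.684%. Rn45s did not follow the order of Kdm4a throughout: from the least to the most Kdm4a, the 7 libraries had an Rn45s FPKM of 2114, 175.4, 1047, 1183, 224.1, 265.7 and 237.2. Their FPKM sums were 575457, 726297, 552356, 585039, 1017995, 797689 and 814958 in the same order. The part of these features in the slopes of the members was not tested beyond the fit with the Rn45s split. With equal FPKM sums the slopes of Setdb1 and Cbx1 were 0.31 ± 0.16 and 0.11 ± 0.14 (SE), while the median of all genes moved from 0.00 to -0.11.

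**Figure D5:**
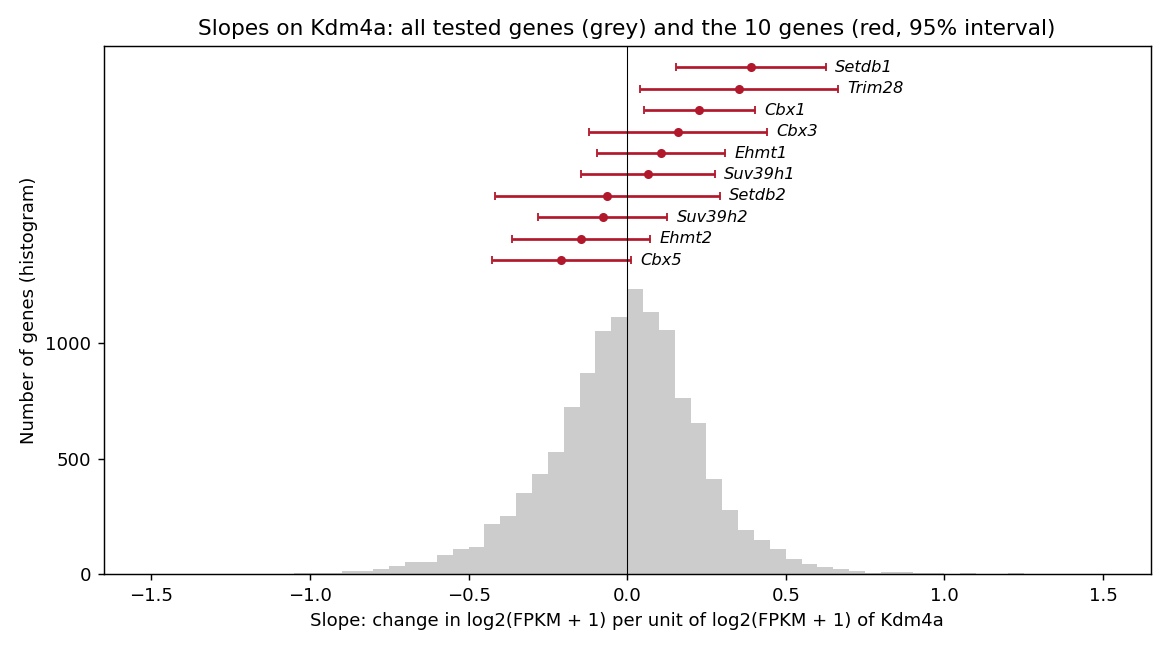
Slopes on Kdm4a (x axis, change in log2(FPKM + 1) per unit of log2(FPKM + 1) of Kdm4a): the histogram counts the 12274 tested genes (y axis; slopes beyond 1.5 in either direction fall in the end bins), and red points with bars give the 10 genes with 95% confidence intervals, stacked for legibility. Setdb1, Trim28 and Cbx1 lie above 0 with their intervals, and the other 7 intervals include 0.

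The promoters of the 3 members with the steepest rising slopes and of Cbx5, which had the steepest falling one, are shown to set the ends of the range of slopes side by side; the choice was made after the values were seen, and none of these slopes passed the threshold. Each sequence is the 250 bases before the RefSeq transcription start (GRCm38.p6; the expression table was made on another build, mm9), 5′ to 3′ on the strand of the gene. Capitals mark matches, on either strand, to the motifs searched.
Setdb1 (chr3:95357203-95357452, minus strand): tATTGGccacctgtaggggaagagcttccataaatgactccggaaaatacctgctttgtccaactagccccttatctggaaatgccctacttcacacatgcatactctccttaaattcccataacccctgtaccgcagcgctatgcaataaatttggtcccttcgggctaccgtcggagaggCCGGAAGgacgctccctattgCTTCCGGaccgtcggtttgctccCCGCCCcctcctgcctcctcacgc
Cbx1 (chr11:96788885-96789134, plus strand): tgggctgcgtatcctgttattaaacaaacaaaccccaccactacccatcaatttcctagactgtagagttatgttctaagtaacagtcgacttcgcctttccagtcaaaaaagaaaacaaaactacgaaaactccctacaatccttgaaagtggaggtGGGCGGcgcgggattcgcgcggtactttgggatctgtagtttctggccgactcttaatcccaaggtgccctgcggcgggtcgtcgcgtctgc
Trim28 (chr7:13023902-13024151, plus strand): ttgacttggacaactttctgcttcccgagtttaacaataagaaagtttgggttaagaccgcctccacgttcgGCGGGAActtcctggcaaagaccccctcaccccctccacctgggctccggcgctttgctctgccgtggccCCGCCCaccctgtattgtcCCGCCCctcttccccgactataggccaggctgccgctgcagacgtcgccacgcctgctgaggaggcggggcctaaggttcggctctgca
Cbx5 (chr15:103239853-103240102, minus strand): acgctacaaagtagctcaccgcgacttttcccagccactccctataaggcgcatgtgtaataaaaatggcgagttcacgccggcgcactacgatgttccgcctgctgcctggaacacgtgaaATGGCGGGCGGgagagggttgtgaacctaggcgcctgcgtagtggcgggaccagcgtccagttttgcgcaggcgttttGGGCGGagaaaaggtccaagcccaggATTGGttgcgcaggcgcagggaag

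The motifs searched were the TATA box (TATAAA), the CCAAT box (CCAAT), the GC box (GGGCGG), an ETS family motif (CCGGAAG), the core of the NRF1 motif (GCATGCG), an E2F family motif (TTCCCGC) and the core of the YY1 motif (ATGGCGG). The letters of the GC box can overlap those of the E2F and YY1 motifs, and do so with the latter in Cbx5. A GC box is in each of the 4 windows and in 9 of the 10 members' windows, against 32.7% of all 32851 RefSeq windows of this length. Those windows were not selected for expression and a gene can have several. The members' windows held from 49.6% (Cbx1) to 73.2% (Cbx3) G or C, against a median of 52.4% over all windows. The part of base content or expression in the share with a GC box was not tested. A CCAAT box is in the windows of Setdb1 and Cbx5 (4 of 10 members, 33.8% of all), and none of the 10 holds the TATA box (12.4% of all) or the NRF1 core (3.0%). Setdb1 alone has the ETS motif, with 2 matches (6.9% of all), and Trim28 shares the E2F motif with Suv39h2 (3.8% of all) and Cbx5 the YY1 core with Suv39h1 (2.2% of all). The 4 windows hold 13, 16, 17 and 22 CpG dinucleotides for Setdb1, Cbx1, Trim28 and Cbx5, or 0.756, 1.045, 0.730 and 1.019 of the number their base content gives, against a median of 0.373 over all windows. The NRF1 and YY1 cores replaced longer forms of these motifs, which had no match in the members' windows. These matches are letters in a window, not measured binding.

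In the partners of these enzymes, a list of 21 genes of which 18 were tested, 0 passed the threshold in limma in any comparison or against Kdm4a. Zfp57, the zinc finger protein that guides TRIM28 to imprinted regions, had an FPKM of 51.3 and 39.6 in CROC+K+M and 99.3, 77.9 and 82.7 in CROC+K, with no overlap, and a log2 fold change of -0.92 ± 0.26 (SE; limma, adjusted p = 0.409). Sumo2, a modifier that TRIM28 attaches to itself and to partners, was at 191.9 and 180.1 against 69.6, 100.9 and 107.1, a log2 fold change of 1.02 ± 0.37 (limma, adjusted p = 0.428). Against Kdm4a, 2 of the 18 had a rising slope at an unadjusted p under 0.05 in limma (6.49% of all tested genes) and 3 a falling one (9.01%). Zfp809, which guides TRIM28 to retroviral sequences, had the steepest slope of the named genes, at 57.3 in CROC+K replicate 1 and 275.5 in CROC+K replicate 3 (slope 0.55 ± 0.11; limma, adjusted p = 0.0690), and Atf7ip2, a relative of a SETDB1 cofactor, had a slope of 0.39 ± 0.12 (limma, adjusted p = 0.173). The 3 falling slopes, named after their values were seen, were those of Fam208a (-0.31 ± 0.11), a subunit of a silencing complex that works with SETDB1, Atf7ip (-0.29 ± 0.12), the SETDB1 cofactor itself, and Zfp568 (-0.24 ± 0.10), a TRIM28-binding zinc finger gene, with adjusted p = 0.221, 0.283 and 0.305 in limma.

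Of 20 further heterochromatin genes 19 were tested, and 0 passed in any comparison or against Kdm4a. Of their slopes on Kdm4a 5 were rising and 14 falling, with a median of -0.06. Over all tested genes 50.6% were rising and the median was 0.00. At an unadjusted p under 0.05 in limma, 2 of the slopes were rising (6.49% of all tested genes) and 1 falling (9.01%). Aurkb, a mitotic kinase gene whose product phosphorylates H3 next to lysine 9, was lowest, at 9.83 and 9.11, in CROC+K replicates 2 and 3 and highest, at 32.4, in CROC+K replicate 1 (slope -0.43 ± 0.11; limma, adjusted p = 0.114). Smchd1, the gene of a chromatin protein that acts on the inactive X chromosome, had a slope of 0.28 ± 0.09 (limma, adjusted p = 0.188). The other rising slope, named after its value was seen, was that of Hmga1, an architectural chromatin protein gene (0.41 ± 0.16; limma, adjusted p = 0.261). Hmga1 was near the floor, with an FPKM of at most 3.92 (FOC+K replicate 1). It was lowest, at 0.000445, in CROC+K replicate 1, the library with the least Kdm4a. Of the 10 H3K9 demethylase genes in the table, 9 besides Kdm4a were tested, and 0 reached an unadjusted p under 0.05 in any of the 3 comparisons or against Kdm4a.

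Over the 7 libraries the genes whose log2 values were most like those of Cbx1, among 6554 genes with a mean FPKM of at least 5, were Obox7 (r = 0.99), an oocyte homeobox gene, Katna1 (0.98), a microtubule-severing gene, and Gkap1 (0.98). For Trim28 they were Klhl7, Trak1 and Tbca (0.97 each), and for Suv39h2 they were Lmnb1, the gene of lamin B1 (0.97), Ptbp2 (0.97) and Zfp91 (0.96). All of these values share the 7 libraries and their depth and scaling, and with so few libraries 37, 17 and 8 genes had an r above 0.95 with Cbx1, Trim28 and Suv39h2. The exons of Setdb1 overlap those of Cers2 on the other strand in the annotation, and Cers2 had an FPKM of 3.73 to 10.7 in 6 libraries and of 44.3 in CROC+K+M replicate 1. Suv39h2 overlaps Dclre1c in the same way, which was at 0.341 to 3.96. How strand was used in making the FPKM is not given in the sources used here, so reads of such partners may have been counted together.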

How the data were processed

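RNA sequencing of 7 libraries gave 1 table of FPKM per gene symbol, the unit the authors deposited. Per the submitters' processing notes, STAR 2.5.2b, Cufflinks 2.2.1, Cuffnorm, R 3.3.2 and the build mm9 were used; which annotation, strand setting and scaling were applied is not given in the sources used here. No 2 libraries were identical. From the table, 1288 rows of small RNAs and Rn45s were left out, and 12275 genes with an FPKM of at least 1 in at least 2 libraries were kept. Values were taken as log2(FPKM + 1), so fold changes of low genes are understated. One limma fit over the 3 groups (limma 3.58.1, R 4.3.3) left 4 residual degrees of freedom, and the fit on Kdm4a left 5; p-values were adjusted by Benjamini-Hochberg over all tested genes, with a threshold of 0.05. Pearson's r and Spearman's rho were tested two-sided over all 5040 pairings. The fits were tested on simulated data. Groups came from the sample labels. Alternatives were another pseudocount, other filters, equal FPKM sums, quantile normalization, array weights, terms for group, Rn45s or replicate number, and leaving out each library. From each of 3 lists of related genes, up to 2 genes per comparison with the smallest p under 0.05 were named. Tables and figures were made with Python 3.11.15, pandas 2.3.3 and matplotlib 3.10.9. The members and the lists were chosen with earlier results of these data known.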

Additional observations from a re-analysis of the deposited data

How the results depend on the processing

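No member passed the threshold under any alternative run. In CROC+K against FOC+K, Cbx3 and Setdb2 (higher) and Suv39h2 (lower) kept their direction in 17 of 17 alternatives. So did Cbx3 (lower, -1.04 to -0.46) in CROC+K+M against CROC+K, and Suv39h2 (lower) in 16 of 16 in CROC+K+M against FOC+K. In these cases the groups did not overlap, so leaving out libraries could not turn the direction. In CROC+K+M against CROC+K, Suv39h1 (lower, -0.46 to -0.07), Cbx5 (higher, 0.11 to 0.59) and Trim28 (higher, 0.09 to 0.87) kept theirs in 17 of 17. Their groups do overlap. Other filters do not move a fold change either, so these are not 17 or 16 separate checks. The cause of the following changes was not tested. The 84 genes past the threshold against Kdm4a became 51 with a pseudocount of 0.1, 32 with no filter, 34 with equal FPKM sums, 16 with quantile normalization, 28 with group as a term, 2 with the Rn45s split as a term, 0 without the 2 libraries farthest from the median of log2 Kdm4a (fewer libraries) and 5 to 783 when 1 library was left out. Leaving out 1 library gave 0 to 658 genes in CROC+K+M against CROC+K and 0 to 546 against FOC+K, the highest without CROC+K+M replicate 2; an arm of 1 library is assumed to vary like the others. Equal FPKM sums turned CROC+K against FOC+K to -0.16 (Suv39h1), -0.076 (Ehmt1), -0.19 (Ehmt2), -0.019 (Cbx1) and -0.095 (Trim28), CROC+K+M against CROC+K to -0.14 (Ehmt2), CROC+K+M against FOC+K to -0.24 (Setdb1), -0.48 (Setdb2), -0.35 (Ehmt1), -0.33 (Ehmt2) and -0.37 (Cbx1), and the slopes of Suv39h1 and Ehmt1 to -0.040 and -0.012. Quantile normalization turned Ehmt2 to -0.070 (CROC+K+M against CROC+K) and Setdb2 and Cbx1 to -0.077 and -0.12 (against FOC+K), and array weights turned Ehmt2 to -0.021 (CROC+K against FOC+K). The Rn45s split as a term, and the libraries with high Rn45s alone, turned CROC+K against FOC+K to -0.094 (Suv39h1), -0.38 (Setdb1), -0.18 (Cbx1), 0.043 (Cbx5) and -0.79 (Trim28). That term turned CROC+K+M against FOC+K to -1.13 (Setdb1), -0.25 (Setdb2), -0.15 (Ehmt1), -0.53 (Cbx1), 0.62 (Cbx5) and -0.70 (Trim28). Without the 2 farthest libraries the slope of Setdb2 was 0.14. With 1 library left out, ranges that crossed 0 were, for CROC+K against FOC+K, -0.14 to 0.26 (Ehmt2) and -0.022 to 0.76 (Trim28). For CROC+K+M against CROC+K they were -0.27 to 0.13 (Suv39h2), -0.75 to 0.053 (Setdb1), -1.18 to 0.39 (Setdb2), -0.16 to 0.069 (Ehmt1), -0.072 to 0.32 (Ehmt2) and -0.35 to 0.079 (Cbx1). Against FOC+K, CROC+K+M gave -0.24 to 0.090 (Suv39h1), -0.72 to 0.85 (Setdb2), -0.46 to 0.12 (Cbx3) and -0.30 to 0.19 (Cbx5), and for the slope of Setdb2 -0.16 to 0.032. A pseudocount of 1 before the ratio moved the mean log2 ratio of Suv39h2 to Suv39h1 in CROC+K+M from 0.89 to 0.83. The exact tests of r and rho without CROC+K+M replicate 1 were added after seeing the data.

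Replicate numbers are shared between groups, and the deviations of same-numbered libraries had correlations of -0.457 to 0.0295. With so few libraries per group, these values cannot tell whether same-numbered libraries were prepared together. With the replicate block 0 genes passed in each of the 3 comparisons and 0 against Kdm4a, and 4 log2 fold changes turned: Trim28 in CROC+K against FOC+K to -0.016, and Ehmt1, Ehmt2 and Cbx1 in CROC+K+M against CROC+K to 0.069, -0.072 and 0.071.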
